A study of Homo sapiens with 6 samples.

Results

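Keratins are the intermediate filament proteins of epithelial cells, and their messenger RNAs were followed here in OVCAR3, an established human cell line from an ovarian carcinoma, with and without knockdown of NUF2, a subunit of the NDC80 kinetochore complex. The members were all genes of the deposited table whose symbol is KRT followed by a number and at most one of the letters A to C, which gave 55 of 19973 genes. Of these, 28 lie on chromosome 17 and 27 on chromosome 12 (human build GRCh38.p13). The keratin-associated proteins (KRTAP genes) and keratin pseudogenes were not members. Both groups were OVCAR3 cells that carried a plasmid with a puromycin resistance gene and a U6 promoter that drives a short hairpin RNA. The hairpin was a control without a target (shNC, labelled WT, n = 3 libraries) or was directed at the coding sequence of NUF2 (shNUF2, labelled NUF2 knockdown, n = 3). Each group therefore rests on 1 hairpin. The labels do not say whether the libraries of a group came from separate cultures, so every p-value below measures only the spread between these libraries.

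A keratin filament is a heteropolymer in which an acidic type I keratin pairs with a basic type II keratin, so each epithelium makes matched sets of both. The type I genes form a cluster on chromosome 17 and the type II genes a cluster on chromosome 12, with KRT18, a type I gene next to its partner KRT8 on chromosome 12, as the exception. Simple epithelia, from which ovarian carcinomas arise, are known for KRT7, KRT8, KRT18 and KRT19. The basal layer of stratified epithelia makes KRT5 with KRT14 and KRT15, wounded or stressed epidermis makes the KRT6 proteins with KRT16 and KRT17, and the hair shaft makes its own set. With KRT18 counted by its protein class, 29 members were type I and 26 type II.

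The libraries held between 13057534 and 16995452 counted reads. NUF2 was lower with shNUF2 by edgeR's quasi-likelihood test (log2 fold change -1.51, adjusted p = 2.17e-15). A gene was tested where edgeR's filter found enough reads, which held for 12874 genes, and it was called where the log2 fold change of shNUF2 over shNC passed 1 in either direction with an unadjusted p below 0.05. Levels are given as CPM, reads scaled by TMM to a common library size, or as FPKM, which also divides by gene length, wherever genes are set against each other. The median log2 fold change of all genes tested was -0.01. Of 10 markers of ovarian carcinoma, 4 (WT1, CDH1, CLDN3 and SOX17) were under 1 FPKM in every library, CLDN3 without a read, while FOLR1 and MSLN were abundant. The summed FPKM of the 10 was 3486 to 3799 with shNC and 2794 to 2961 with shNUF2, of which FOLR1 alone made up 3499 and 2755 on average. CLDN4 was called higher (log2 fold change 1.14), and PAX8 (0.64) and EPCAM (0.69) were also higher at an edgeR adjusted p below 0.05, while MSLN (-0.75), MUC16 (-0.75) and FOLR1 (-0.31) were lower. CDH1 (E-cadherin) is a defining gene of epithelial cells and KRT19 of simple epithelia, and KRT19 had no more than 8 reads in any library, so both were nearly absent from libraries labelled as an epithelial cancer line. Of 16 epithelial regulators listed for their link to keratins, 9 were under 1 FPKM in every library, among them ESRP1, with 2 reads over all libraries, and GRHL2, with 6. Others were well expressed, with shNC means of 122 FPKM for KLF5, 16.3 for ELF3, 13.2 for TFAP2A and 7.66 for KLF4. Of 16 linkers and filament-associated proteins, only PKP1 was under 1 FPKM in every library. Whether the cells are OVCAR3 was not tested, and the name is used here as the labels give it. All 6 keratinocyte markers were under 1 FPKM everywhere, with SERPINB13 without a read in any library, and their sum was 0.116 to 0.197 FPKM with shNC and 0.328 to 0.486 FPKM with shNUF2. The part of these marker levels in the keratin values was not tested.

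Some keratins are so alike that reads can be hard to place. The stretches below compare the 3 tested hair keratins of chromosome 12, of which KRT81 was called higher and KRT83 lower. They are 60 coding bases of the GENCODE 29 transcripts, written 5′ to 3′, with capitals at the 22 positions where the 3 sequences are not all alike. The stretch was chosen as the 60 aligned bases with the most such positions, so it shows the sequences where they differ most. KRT81 lies at chr12:52285913-52291534 on the minus strand and its stretch is coding bases 1286 to 1345. KRT86 lies at chr12:52249300-52309163 on the plus strand, with the same coding positions, and KRT83 at chr12:52314301-52321398 on the minus strand, with coding bases 1301 to 1360.
KRT81: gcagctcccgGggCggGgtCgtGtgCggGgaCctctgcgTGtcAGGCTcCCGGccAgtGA
KRT86: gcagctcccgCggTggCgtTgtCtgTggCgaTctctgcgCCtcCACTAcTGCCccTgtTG
KRT83: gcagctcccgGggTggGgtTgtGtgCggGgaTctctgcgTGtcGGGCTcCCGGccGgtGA
Within this stretch KRT81 and KRT83 differ at 5 of 60 positions, and the other capitals set KRT86 apart from both. Over the whole alignment, 168 of 1450 coding positions are not alike in all 3. The whole coding sequences of KRT81 and KRT86 are 90.1% identical, those of KRT81 and KRT83 89.4% and those of KRT83 and KRT86 89.3%. Of all windows of 100 bases in the annotated transcripts, 29.7% of those of KRT81 and 25.8% of those of KRT86 also occurred in another gene, against 0% of those of KRT83. Of windows of 50 bases, these shares were 43.7%, 37.5% and 12.8%.

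Among the type I keratins of basal and wounded epidermis, all on the minus strand, KRT17 lies at chr17:41619442-41624842, KRT16 at chr17:41609778-41615899 and KRT14 at chr17:41582279-41586895. KRT16 and KRT14 are 85.2% identical over their coding sequences, whereas KRT17 is 78.4% identical to KRT14 and 72.6% to KRT16. The windows of 100 bases found in another gene were 4.69% for KRT16, 4.08% for KRT14 and 0.147% for KRT17. Of windows of 50 bases, these shares were 16.5%, 16.8% and 9.02%. How the authors' counting placed reads that match several genes is not given in the sources used here.

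Most keratins were silent or nearly so. No read was counted in any library for 19 of the 55, which allows up to 0.0337 CPM by 3 reads over all 6 libraries, a limit that covers counting error only. A library held 10 or more reads for 16 members, and 14 members passed the filter and were tested: 8 of the 29 type I and 6 of the 26 type II genes. A gene high in only 1 group can pass the filter through that group. With shNC, KRT17 had the highest mean level per length at 273 ± 19.9 FPKM (SD, n = 3). KRT7 came next at 169 ± 20.5 FPKM. KRT8 at 49.5 ± 1.45 FPKM and KRT80 at 47.3 ± 1.51 FPKM overlapped in their ranges over the shNC libraries, and KRT18 followed at 35.3 ± 1.06 FPKM. KRT10 stood at 12.5 ± 6.30 FPKM, and all other keratins were at 3.74 FPKM or less on average. KRT16 at 1.94 ± 0.0789 FPKM lay above KRT15 at 1.74 ± 0.0239 FPKM in every shNC library, while KRT86 at 1.71 ± 0.282 FPKM overlapped both. With shNUF2 the first 3 places were unchanged in order, and KRT18 at 50.4 ± 1.99 FPKM stood above KRT80 at 44.4 ± 1.56 FPKM. The order rests on the deposited gene lengths. With the length of the longest coding transcript, chosen after seeing the data, the shNC levels of KRT8, KRT18 and KRT80 were 139.9, 63.8 and 53.0 FPKM, so KRT8 and KRT80 no longer overlapped and KRT18 was already above KRT80.

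**Figure D1:**
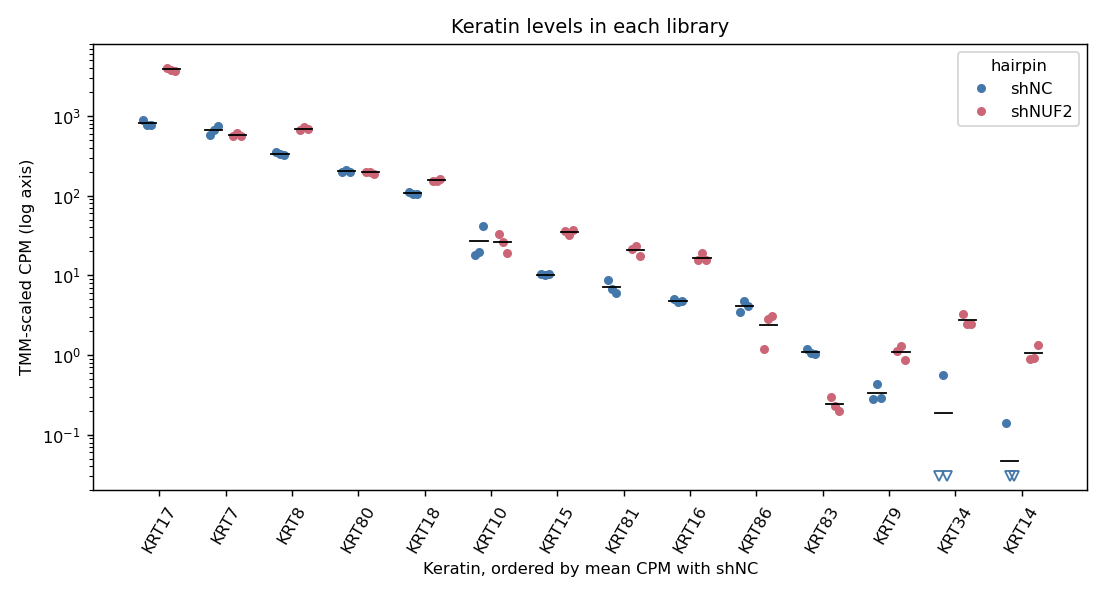
TMM-scaled CPM on a log axis for the 14 keratins tested, with 1 point per library, a black line at each group mean and open triangles for libraries without a read. KRT17 is the highest in both groups, and the lowest 4 genes, KRT83, KRT9, KRT34 and KRT14, lie near or under 1 CPM with shNC.

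Of the 14 keratins tested, 8 were called higher with shNUF2 (KRT8, KRT9, KRT14, KRT15, KRT16, KRT17, KRT34 and KRT81), against 9.41% of all genes tested. Only KRT83 was called lower, against 4.16% of all genes. At an adjusted p below 0.05 and any size of change, 9 keratins were higher and 3 lower, where the shares over all genes were 33.9% and 33.8%. The shNUF2 and shNC libraries did not overlap for 11 of the 14, against 70.6% of all genes. The median log2 fold change of the 14 was 1.29, and it was 1.80 for the 8 type I and -0.14 for the 6 type II genes tested. Type I genes accounted for 6 of the 8 calls, and type II genes for KRT8 and KRT81. These shares describe only genes that passed the filter. KRT9, KRT14 and KRT34, all type I, passed it only through the shNUF2 libraries, where they were higher, and KRT83 only through the shNC libraries. Their calls and folds, counted in the shares and medians above, are thus not independent of the filter. With at least 1 CPM asked in every library, these genes were not tested. Then 5 of 10 keratins were called higher and 0 lower, against 756 and 397 of 11711 genes. In bulk RNA, a change in the share of cells that make a keratin and a change in the amount per cell cannot be told apart.

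**Figure D2:**
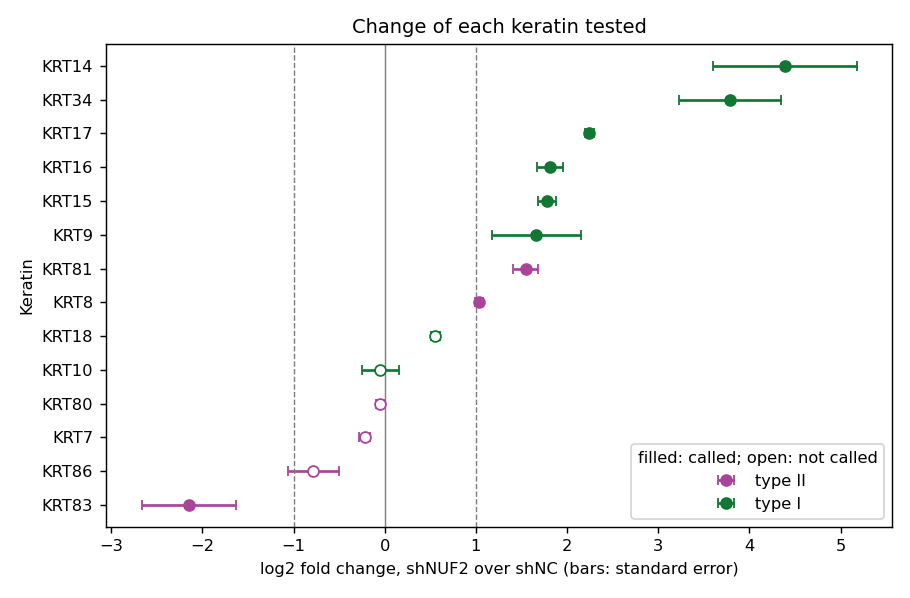
The log2 fold change of shNUF2 over shNC from edgeR's quasi-likelihood test for each keratin tested, with its standard error as the bar, type I in green and type II in purple, filled where called. The 6 filled type I points lie between 1.66 and 4.39, and the filled type II points are KRT8 at 1.04, KRT81 at 1.54 and KRT83 at -2.15.

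Both stress or wound keratins with enough reads rose. KRT17 is induced in wounded skin and is common in carcinomas of stratified epithelia. It gave 12528, 12237 and 13433 reads under shNC against 54425, 49501 and 55029 under shNUF2. Every knockdown library was thus far above every control library. The mean level was 809 ± 62.8 CPM with shNC and 3835 ± 191 CPM with shNUF2 (SD, n = 3 each). The log2 fold change was 2.24 ± 0.05 (SE, edgeR adjusted p = 4.14e-23), and it stayed between 2.20 and 2.31 under every alternative tried. KRT16, which is made beside KRT17 in wounded skin, gave 71, 73 and 81 reads under shNC against 208, 250 and 234 under shNUF2. The groups did not overlap, and the level went from 4.76 ± 0.217 to 16.7 ± 2.16 CPM (log2 fold change 1.81 ± 0.14, edgeR adjusted p = 1.81e-11). Per length, KRT16 was 0.00712 ± 2.34e-04 of KRT17 with shNC and 0.00529 ± 7.54e-04 with shNUF2. Their type II partners in wounded epidermis were close to silent. KRT6A had at most 6 reads in any library and 7 in each group in total, and KRT6B and KRT6C had none.

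Both basal keratins with enough reads were also called higher, on far fewer reads. KRT15, a keratin of basal cells and of the hair follicle bulge, gave 146, 161 and 179 reads under shNC against 492, 419 and 551 under shNUF2. The knockdown libraries lay above all controls, at 35.1 ± 2.50 CPM against 10.2 ± 0.166 CPM. KRT15 rose by 1.78 ± 0.10 on the log2 scale (SE, edgeR adjusted p = 1.44e-14). KRT14, the main type I keratin of basal epidermis, gave 2, 0 and 0 reads under shNC against 12, 12 and 20 under shNUF2. The gene was thus almost unread in the controls, and the ratio of reads per TMM-scaled library size was 25.1 with an exact 95% counting interval from 6.55 to 214. Its fitted log2 fold change of 4.39 ± 0.79 (edgeR adjusted p = 2.08e-05) is uncertain with so few reads, and was 0.51 in limma on log2(FPKM + 1), where the added 1 exceeds the level itself, and 6.99 without shNC replicate 1, where no control read remained. Even with shNUF2, KRT14 reached only 0.459 ± 0.108 FPKM. KRT5, the type II partner of both, had at most 5 reads in any library and 7 in total in each group.

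Of the 5 simple epithelial keratins, 3 were tested, and only KRT8 was called. KRT8, the type II keratin of the earliest epithelia, gave 4967, 5315 and 5648 reads under shNC against 8963, 9441 and 10296 under shNUF2. These groups were well apart, with 337 ± 11.1 CPM against 692 ± 31.4 CPM. KRT8 rose by 1.04 ± 0.04 on the log2 scale (edgeR adjusted p = 3.22e-17), just past the limit of 1, and it fell just short of that limit in limma on log2(FPKM + 1), at 0.99, and on log2(FPKM + 0.1), at 1.00. In TREAT, edgeR's test for changes larger than a set fold, here the limit of 1, its p was 0.0677 unadjusted and 0.651 adjusted. KRT18, its type I partner, gave 1581, 1674 and 1804 reads under shNC against 2064, 2002 and 2460 under shNUF2. KRT18 was also higher in every knockdown library after scaling, by 0.55 ± 0.05 on the log2 scale (edgeR adjusted p = 1.02e-10), a change too small to be called. Per length, KRT18 stood at 0.712 ± 0.00519 of KRT8 with shNC and at 0.509 ± 0.0308 with shNUF2, with no overlap (exact two-sided permutation p = 0.1, the smallest that 3 against 3 libraries can give). The deposited length of KRT8, 6881 bp, exceeds that of its longest coding transcript, 2437 bases, and so does that of KRT18, 3069 bp against 1696 bases. With those transcript lengths the ratio was 0.456 ± 0.00333 and 0.326 ± 0.0197, lower in both groups alike. The KRT8 and KRT18 gene spans overlap on opposite strands over 1084 bp, and whether the counting used strand is not given in the sources used here.

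KRT7, the type II keratin of ducts and of most ovarian carcinomas, was not called. KRT7 gave 8311, 10806 and 12768 reads under shNC against 7485, 7945 and 8356 under shNUF2. The scaled levels overlapped, from 585 to 742 CPM with shNC and from 555 to 611 CPM with shNUF2. The log2 fold change was -0.22 ± 0.06 (edgeR adjusted p = 0.00174), and the adjusted p ranged up to 0.0742 over the alternatives. The ratio of KRT17 to KRT7 per length was 1.64 ± 0.324 with shNC and 8.94 ± 0.706 with shNUF2, with no overlap (exact two-sided permutation p = 0.1). KRT19, a small type I keratin, gave 7, 1 and 4 reads under shNC against 8, 6 and 7 under shNUF2, too few to test. KRT20, a keratin of the gut lining and urothelium, had at most 5 reads in any library.

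The hair shaft keratins held calls in both directions. KRT81 gave 123, 107 and 104 reads under shNC against 289, 304 and 261 under shNUF2, and the groups did not overlap. Its level was 7.13 ± 1.36 CPM with shNC and 20.7 ± 3.08 CPM with shNUF2 (log2 fold change 1.54 ± 0.14, edgeR adjusted p = 2.91e-10). KRT86, whose coding sequence is the most like it among those compared, gave 49, 76 and 70 reads under shNC against 16, 37 and 46 under shNUF2. KRT86 was lower in all 3 knockdown libraries but was not called, with a log2 fold change of -0.79 ± 0.28 (edgeR adjusted p = 0.0154). Without shNUF2 replicate 3 it was -1.03 and was called, and without shNUF2 replicate 1 it was -0.47 with an adjusted p of 0.113. Without shNC replicate 2 it was -0.67 with an adjusted p of 0.0762. The annotated span of KRT86 contains the whole of KRT81 on the other strand, an overlap of 5622 bp, and shares 2887 bp with KRT7 on the same strand, so reads of these genes may not be fully separable. The ratio of KRT81 to KRT86 per length was 2.26 ± 0.773 with shNC and 13.4 ± 8.22 with shNUF2, without overlap. The shNUF2 mean, in a check added after seeing the data, was 8.73 without shNUF2 replicate 1, the library with 16 reads of KRT86, where the ratio was 22.7.

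KRT83 was the only keratin called lower. It gave 17, 17 and 18 reads under shNC against 4, 3 and 3 under shNUF2, and the groups did not overlap. The ratio of reads per TMM-scaled library size was 0.220 with an exact 95% counting interval from 0.0995 to 0.437. The log2 fold change was -2.15 ± 0.52 (edgeR adjusted p = 6.38e-04), and the call was lost in limma on log2(FPKM + 1), at -0.50. In edgeR's TREAT its p was 0.00490 unadjusted, which passes, and 0.0677 adjusted, which does not. KRT34, a type I hair keratin, gave 0, 9 and 0 reads under shNC against 44, 32 and 37 under shNUF2. All of its control reads came from shNC replicate 2. The ratio of reads was 14.3 with a counting interval from 7.29 to 32.2, and the log2 fold change was 3.79 ± 0.56 (edgeR adjusted p = 1.46e-06), or 8.32 without shNC replicate 2, where no control read remained. Of the 13 hair shaft keratins not tested, none reached 10 reads in any library.

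Of the epidermal keratins made above the basal layer, KRT9, the keratin of palms and soles, gave 4, 7 and 5 reads under shNC against 15, 17 and 13 under shNUF2. The groups did not overlap, and the ratio of reads was 3.21 with a counting interval from 1.78 to 6.09. Its log2 fold change was 1.66 ± 0.48 (edgeR adjusted p = 0.00369), and it was not called in limma on log2(FPKM + 1), at 0.36. In edgeR's TREAT its p was 0.0287 unadjusted, which passes, and 0.321 adjusted, which does not. KRT10, the type I partner of KRT1 in differentiating epidermis, gave 259, 314 and 726 reads under shNC against 446, 339 and 291 under shNUF2. Both groups spanned a wide range and overlapped, with shNC replicate 3 at 42.2 CPM against 18.2 and 19.6 CPM in the other shNC libraries. The log2 fold change of -0.05 ± 0.20 (edgeR adjusted p = 0.840) became 0.45 (adjusted p = 0.00305) without shNC replicate 3. KRT80, a type II keratin found in many epithelia, gave 2852, 3361 and 3455 reads under shNC against 2693, 2610 and 2840 under shNUF2. The scaled levels of KRT80 overlapped at 204 ± 5.54 and 196 ± 6.64 CPM, with a log2 fold change of -0.05 ± 0.04 (edgeR adjusted p = 0.288).

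Among keratins not tested, KRT12, of the cornea, gave 12, 9 and 4 reads under shNC against 5, 5 and 2 under shNUF2. KRT79, of the sebaceous gland and hair follicle, gave 0, 0 and 2 reads under shNC against 3, 8 and 11 under shNUF2, a ratio of 12.6 with a counting interval from 3.09 to 110. These were the only untested members with 10 or more reads in a library. KRT2, KRT3 and KRT75 had no read with shNC and 9, 9 and 8 reads in total with shNUF2. Against a floor of 3 reads over the group, these were at least 3.43-fold, 3.43-fold and 3.04-fold higher if the shNUF2 reads are taken as exact, and the lower limits of the exact 95% counting intervals were 2.25, 2.25 and 1.95.

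The keratins together took up more of the RNA with shNUF2, mostly through KRT17. Their summed level was 2176, 2139 and 2227 CPM in the shNC libraries and 5728, 5614 and 5352 CPM in the shNUF2 libraries. Each group was tight and all knockdown libraries were above all controls, a ratio of 2.55 between the means (exact two-sided permutation p = 0.1, the smallest possible). KRT17 made up 89.4% of the gain in mean CPM and KRT8 10.5%. Without KRT17 the sum was 1371 ± 75.8 CPM with shNC and 1729 ± 65.5 CPM with shNUF2, a ratio of 1.26.

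**Figure D3:**
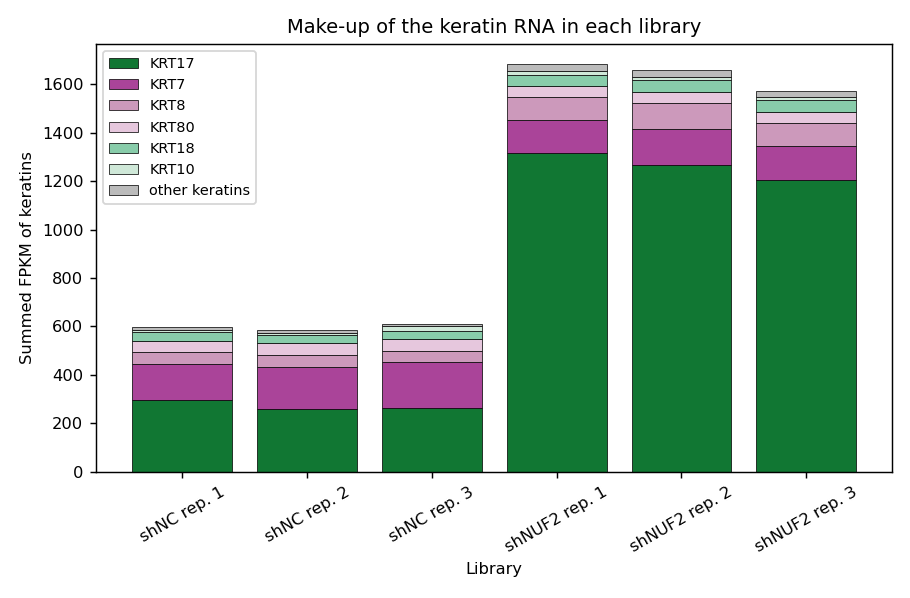
Summed FPKM of the keratins in each library as stacked bars from 0, with the 6 most abundant genes in their own colours (type I in greens, type II in purples). The bars reach 585 to 611 FPKM with shNC and 1572 to 1683 FPKM with shNUF2, and the KRT17 segment accounts for most of the difference.

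Type I genes held 57.9%, 52.7% and 52.8% of the summed keratin FPKM with shNC and 82.9%, 80.9% and 81.6% with shNUF2. The control libraries were thus near balance between the types and the knockdown libraries were not, a difference of 27.4 percentage points (exact two-sided permutation p = 0.1). With KRT18 grouped by chromosome, the chromosome 17 share was 48.6 ± 2.80% and 78.7 ± 1.15%. Without KRT17, type I genes held 16.1 ± 1.03% with shNC and 20.8 ± 0.920% with shNUF2, a difference of 4.72 points. KRT17 alone held 45.8 ± 3.40% and 77.1 ± 1.07% of keratin FPKM, while KRT7 held 28.3 ± 3.21% and 8.65 ± 0.554%. By coding sequence KRT18 stood with its class, with a median identity of 57.2% to the 28 keratins of chromosome 17 and of 48.5% to the other 26 of chromosome 12.

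By position, the called keratins of chromosome 17 lay where the tested ones did. In order of position, the last 6 keratins of that cluster are KRT15, KRT19, KRT9, KRT14, KRT16 and KRT17, from base 41513745 to base 41624842, all on the minus strand. Apart from KRT19, which had too few reads to test, each of them was called higher. Of these, KRT9 and KRT14 passed the filter only through the shNUF2 libraries. The other tested keratins of the chromosome lie before them, KRT34, called higher, and KRT10, not called. The nearest tested genes outside the cluster were not: EIF1 had a log2 fold change of 0.03 ± 0.04, HAP1 of -0.45 ± 0.12 and JUP of -0.02 ± 0.04, and SMARCE1 and TNS4 on the other side of -0.36 ± 0.16 and 0.05 ± 0.08. The 34 other genes listed between the keratins of chromosome 17, all of them KRTAP genes, had too few reads to test. On chromosome 12 the tested keratins sit at the ends of the cluster, KRT80, KRT7, KRT86, KRT81 and KRT83 at one end and KRT8 and KRT18 at the other, and the 20 keratins between them were not tested. The 7 flanking genes tested on chromosome 12 had log2 fold changes between -0.69 and 0.99 and none was called by edgeR.

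**Figure D4:**
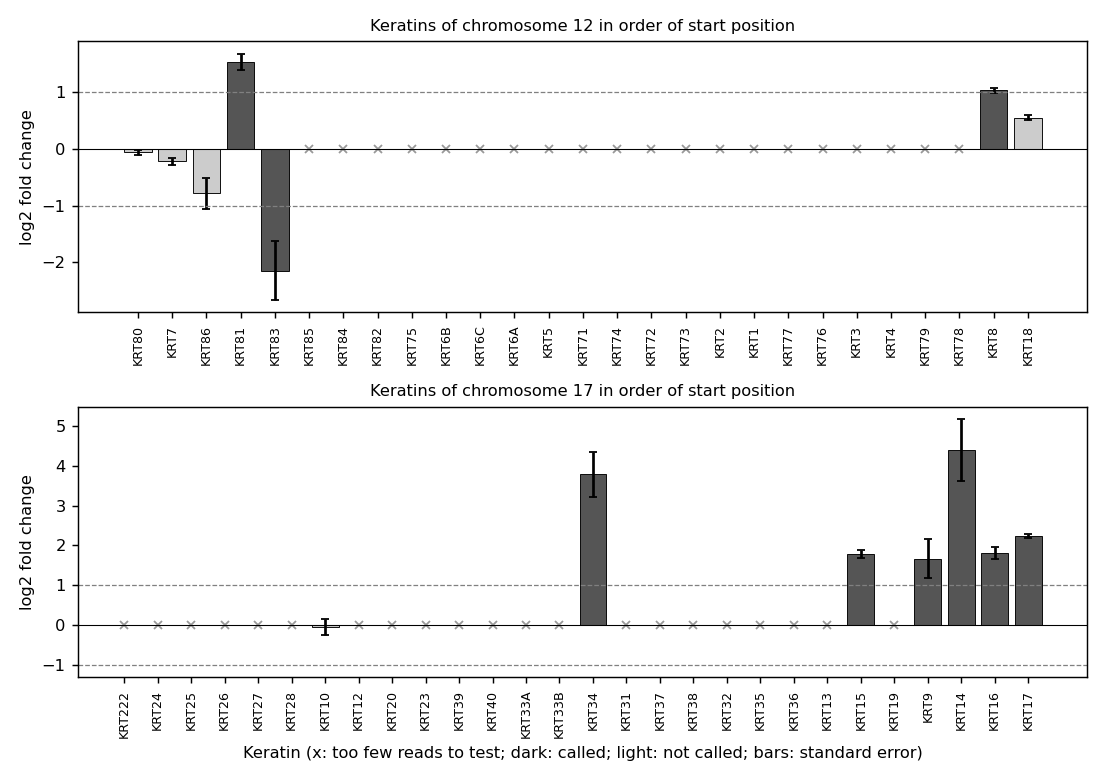
The log2 fold change of shNUF2 over shNC for the keratins of chromosome 12 (top) and chromosome 17 (bottom) in order of start position, with standard errors. Bars are dark where called and light where not, and crosses mark genes with too few reads to test. The dark bars of chromosome 17 are KRT34 and, at the right end, KRT15, KRT9, KRT14, KRT16 and KRT17.

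RefSeq promoters (GRCh38.p14, 250 bases before to 50 after the start) were at hand for 34 of the 55 keratins, among them only 4 of the tested genes. A TATA box is a short sequence that positions the start of transcription. Searched on both strands, TATAAA was found in 21 of the 34 (61.8%), against 11.5% of 35116 promoters. On the strand of the gene and between 40 and 20 bases before the start, it was found in 16 of 34 (47.1%), against 2.30% of all promoters. The 60 bases before the start are shown on the gene's strand, with TATAAA in capitals, for 3 tested type I genes, of which KRT9 and KRT34 were called higher and KRT10 was not.
KRT34, chr17:41382307-41382366, minus strand: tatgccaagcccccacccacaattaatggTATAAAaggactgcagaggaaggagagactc
KRT9, chr17:41572060-41572119, minus strand: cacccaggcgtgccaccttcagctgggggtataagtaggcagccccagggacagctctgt
KRT10, chr17:40822615-40822674, minus strand: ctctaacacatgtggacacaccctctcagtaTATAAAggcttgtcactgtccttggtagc
The box begins 31 bases before the start in KRT34 and 29 before it in KRT10, and the exact letters are not in the KRT9 window. TGANTCA, the AP-1 motif, was in 0 of the 34 keratin promoters against 7.71% of all, and GGGCGG, a motif of SP and KLF factors, was in 6 (17.6%) against 45.0%. Both strands were searched for each motif, and a promoter was counted once however many matches it held. The units differ: a keratin was counted if any of its promoters held a match, while the share over all promoters counts each promoter by itself.

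Genes that work with keratins were read from lists set by role. Of 16 linkers and filament-associated proteins, 15 were tested, with a median log2 fold change of 0.10. Plakophilin 2 (PKP2), a desmosomal plaque protein, was called higher by 1.14 ± 0.10 on the log2 scale (edgeR adjusted p = 6.40e-11). EPS8, an actin-binding signalling adaptor, was called at 1.01 ± 0.09 (adjusted p = 2.30e-10). Plectin (PLEC), which ties keratin filaments to other structures, had a log2 fold change of 0.68 ± 0.04 and desmoplakin (DSP) of 0.45 ± 0.05, neither of them called. At an adjusted p below 0.05 and any size, 6 of the 15 were higher and 2 lower, where the shares over all genes were 33.9% and 33.8%.

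Cornified envelope genes, which are made with keratins in the outer epidermis, were mostly silent. Of 21 in the table, 19 were under 1 FPKM in every library and 3 were tested. Only SBSN (suprabasin) was called higher, with no read in any shNC library and 21, 25 and 20 reads with shNUF2. That is at least 25.1-fold higher against a floor of 3 reads over the shNC group if the shNUF2 reads are taken as exact, and the exact 95% counting interval began at 19.9. TGM1 and CNFN had log2 fold changes of 0.54 ± 0.25 and 0.53 ± 0.29 and were not called. The median of the 3 was 0.54, also with SBSN at its bound.

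Of the 16 epithelial regulators listed for a link to keratin genes, transcription factors except for ESRP1, 9 were tested. Their median log2 fold change was 0.48. TFAP2A was called lower, from 13.2 to 5.32 FPKM on average (log2 fold change -1.27 ± 0.06, edgeR adjusted p = 1.51e-15), while its relative TFAP2C was called higher, from 4.21 to 10.9 FPKM (1.41 ± 0.09, adjusted p = 5.60e-13). GRHL1, a grainyhead factor, was higher by 1.46 ± 0.17 (adjusted p = 3.82e-08). TP63, the master regulator of stratified epithelia, gave 15, 13 and 6 reads under shNC against 30, 27 and 32 under shNUF2. The groups of TP63 did not overlap and it was called (1.56 ± 0.38, edgeR adjusted p = 7.18e-04), but its mean level with shNUF2 was only 0.283 FPKM. KLF5, an abundant factor of many epithelia, was not called, with a log2 fold change of 0.02 ± 0.04 (adjusted p = 0.726).

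Of 16 other intermediate filament genes, 11 were tested, with a median log2 fold change of 0.49. Vimentin (VIM), the filament of mesenchymal cells, was called higher, from 22.4 to 61.4 FPKM on average (log2 fold change 1.49 ± 0.06, edgeR adjusted p = 3.03e-17). Nestin (NES), a filament of progenitor cells, was called at 1.44 ± 0.09 (adjusted p = 1.20e-13) and syncoilin (SYNC), which is known from muscle, was called lower at -1.10 ± 0.14 (adjusted p = 7.55e-08). Of the lamins, the nuclear members of the family, LMNA had a log2 fold change of 0.72 ± 0.04 and LMNB1 of -0.57 ± 0.06, neither of them called. Across the 4 lists, 8 of the 38 genes tested were called higher and 2 lower, against 9.41% and 4.16% of all genes tested.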

How the data were processed

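RNA of OVCAR3 cells was extracted with TRIzol and made into TruSeq Stranded mRNA libraries, which were sequenced on an Illumina NovaSeq. The submitters' processing notes name cutadapt, HISAT and HTSeq and the build GRCh38.p13, with no versions or settings. The deposited table holds raw read counts per gene and FPKM values for 6 libraries, and the FPKM values were recomputed from the deposited counts, gene lengths and totals of counted reads. Replicates were not pooled by the authors.

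The counts were fitted over all genes with edgeR 4.0.16 (R 4.3.3): filterByExpr, TMM scaling, glmQLFit and glmQLFTest, with Benjamini-Hochberg adjustment over 12874 genes. The thresholds follow the study's methods, read on the log2 scale. The biological coefficient of variation was 4.93%. Single values per library were compared by exact two-sided permutation tests (scipy 1.17.1), and counting intervals are exact conditional binomial intervals. The read ratios given with them, and the folds against a floor of 3 reads over a group, use TMM-scaled library sizes. DESeq2 1.42.0, limma 3.58.1, other scalings, filters and thresholds, a replicate block and leaving out each library were alternatives. The model scripts were tested on simulated data. Libraries of a group differed beyond sampling noise, with a chi-square per degree of freedom from 2.65 to 4.37 over genes.

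Every tested keratin was named. Of the other lists, the called genes with the smallest p were named, at most 4 in each direction. Genes named beside them (PLEC, DSP, PKP1, TGM1, CNFN, ESRP1, GRHL2, KLF4, KLF5, ELF3, LMNA, LMNB1 and the flanking genes) were chosen after their values were seen. Members and lists were chosen with earlier results of these data known. Coding sequences came from GENCODE 29 transcripts and stand in for the protein sequences first planned. Promoters came from RefSeq. Windows of 50 and 100 bases were searched in all GENCODE 29 transcripts. Of the other marker lists, 6 of 7 fibroblast genes (all but COL1A1) and 4 of 4 endothelial genes were under 1 FPKM in every library. Of these, DCN (log2 fold change 1.22) and CDH5 (3.45, on 6 reads with shNC and 61 with shNUF2) were called higher, and COL3A1, not tested, had 3 and 35 reads. COL1A1 was lower (-0.39, edgeR adjusted p = 1.23e-06) but not called, and neither were PDGFRB (0.53) and PECAM1 (-0.02). The summed FPKM of the fibroblast list was 9.44 to 10.1 with shNC and 7.36 to 8.23 with shNUF2. That of the endothelial list was 0.263 to 0.439 and 0.462 to 0.746. The part of these markers in the keratin values was not tested. The immune marker list and some sequences are not reported here.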

Additional observations from a re-analysis of the deposited data

How the results depend on the processing

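The count of keratins called higher was 8 in the reported fit and stayed at 8 with 3 other scalings, DESeq2, each library left out and an adjusted p in place of the unadjusted. It was 12 with no filter, where 36 keratins were tested and 1770 of 16861 genes were called higher, 9 with an adjusted p and no fold limit, 7 in limma on log2(FPKM + 0.1) and 6 in TREAT with an adjusted p, where KRT8 and KRT9 did not pass (KRT9 passed at the unadjusted p). It was 5 with at least 1 CPM asked in every library, where 10 keratins were tested and 756 of 11711 genes were called higher. It was also 5 in limma on log2(FPKM + 1), and 5 with an average log2 CPM of at least 1, an alternative chosen after seeing the data. The count called lower was 1, and 0 under those same 3 settings and in TREAT, 3 with an adjusted p and no fold limit, and 1 to 2 with a library left out, the 2 without shNUF2 replicate 3. Over all genes, limma on log2(FPKM + 1) called 430 higher and 206 lower, against 1212 and 536. Of the partner genes, 10 were called, 4 in limma on log2(FPKM + 1), 6 in TREAT and 23 of 38 with no fold limit, where 33.9% of all genes were higher and 33.8% lower. The ratio of summed keratin levels was 2.55, 2.74 on summed FPKM and 1.26 without KRT17, and 2.51 to 2.60 with a library left out. The type I difference of 27.4 points was 4.72 without KRT17 and 28.6 with lengths of the longest transcripts, both chosen after seeing the data. For the changed values other than those of the filter and of leaving out KRT17, the cause was not tested. KRT10 turned from -0.05 to 0.00822 with the replicate block, 0.0104 in limma on log2(FPKM + 0.1) and 0.00552 in limma on log2(FPKM + 1), and ranged from -0.26 to 0.45 with a library left out, above 0 without shNUF2 replicate 3 (0.13) and without shNC replicate 3. Same-numbered libraries did not deviate together (correlations of deviations 0.02, 0.00456 and -0.03). The labels do not say whether same-numbered libraries were prepared together, and these correlations cannot decide it. With the replicate block, 8 keratins were called higher, 1 lower and 10 partner genes. The low reads of KRT9, KRT14, KRT34 and KRT83 limit the precision of their folds.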
